A study of Mus musculus with 8 samples.

Results

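The nuclear-encoded subunits of the mitochondrial respiratory chain were followed in the RNA of whole mouse liver. Members were taken by name: Nduf followed by a, b, c, s or v, Uqcr, Sdha to Sdhd, Cox followed by a digit from 4 to 8, and Atp5. Of the 24545 rows of the deposited table, 97 carried such a name, under 94 names, and the row with the highest sum stood for each name. Cox7b2 and Cox8c were both listed at 0 in all 8 libraries and were counted once, which left 93 members, 92 of them above 0 among 17294 features above 0. By textbook role, 36 of the names were subunits of complex I, 4 of complex II, 8 of complex III, 11 of complex IV and 15 of complex V. A further 8 were isoforms of complex IV subunits known from other tissues, and 12 were assembly factors or other names that the rule caught. A level of at least 1 FPKM (fragments per kilobase of transcript, scaled to the fragments mapped in the library) in 2 of the 8 libraries was required for testing, and 88 members passed and are reported. Below that level were Atp5g2, Cox4i2 and Ndufaf5.

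The study crossed a transgene with a bacterial stimulus in male C57Bl/6J mice, with 2 livers in each of 4 groups. The groups were ApoE-Cyp7a1 transgenic mice given lipopolysaccharide (LPS), wild type mice given LPS, untreated ApoE-Cyp7a1 transgenic mice and untreated wild type mice. LPS, an outer membrane component of Gram-negative bacteria that activates innate immune cells, was given once a day at 1.5 mg/kg for 7 days. Cyp7a1 catalyses the first and rate-limiting step of classic bile acid synthesis, and the transgene is described by the submitters as liver specific. All 4 groups share the C57Bl/6J background. The sources used here do not give the age of the mice, the promoter elements of the transgene or any injection of the untreated mice. The submitters call the 2 libraries of a group biological replicates.

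Complex I (NADH dehydrogenase) and complex II (succinate dehydrogenase) pass electrons to ubiquinone, complex III (cytochrome bc1) passes them on to cytochrome c, and complex IV (cytochrome c oxidase) passes them to oxygen. Complexes I, III and IV pump protons, and complex V (ATP synthase) uses the resulting gradient to make ATP. In hepatocytes this chain supports gluconeogenesis, urea synthesis and fatty acid oxidation, and most of its subunits are encoded in the nucleus.

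The targeted gene gave a check of the labels. Cyp7a1 was at 73.5 and 70.2 FPKM in transgenic LPS livers, 19.9 and 27.9 FPKM in wild-type LPS livers, 64.7 and 78.5 FPKM in untreated transgenic livers, and 24.9 and 49.1 FPKM in untreated wild-type livers. All 4 transgenic libraries stood above all 4 wild-type libraries, and the difference averaged over treatments was 1.29 on the log2(FPKM + 1) scale (SE 0.22, limma, Benjamini-Hochberg adjusted p = 0.127, not past the threshold of 0.05). Defining markers of hepatocytes were present in every library, with a summed level of 30220.0 to 33600.0 FPKM in LPS livers and 31640.0 to 47440.0 FPKM in untreated livers. The FPKM of a library summed to 406668 to 469644 in LPS livers and to 500765 to 580051 in untreated livers. Sequencing depth is unknown. Pancreas markers summed to 2.15 to 127 FPKM in LPS livers and to 49.3 to 3647 FPKM in untreated livers, and striated muscle markers to 3.38 to 37.7 FPKM in LPS livers and to 1.15 to 79.9 FPKM in untreated livers.

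Respiratory chain subunits were lower in LPS livers than in untreated livers, in all 5 complexes. Averaged over the genotypes, 52 of the 88 tested members fell, 1 rose and 35 did not pass the test (limma on log2(FPKM + 1), adjusted p under 0.05 over 11463 features). Over all features tested, 15.8% were lower and 20.6% higher. The members' median log2 change was -0.42, beside -0.06 over all features, and 84 of the 88 members lay below 0. For 48 members (54.5%), all 4 LPS libraries were below all 4 untreated libraries, against 16.8% of all features. Because whole liver was measured, fewer cells of a type and less RNA per cell cannot be told apart. With LPS, 8 of 9 tested macrophage markers and 8 of 8 neutrophil markers were higher, and the macrophage markers summed to 1351 to 1542 FPKM in LPS livers and 112 to 223 FPKM in untreated livers. Of the tested markers of other cell types, 7 of 8 were higher for stellate cells and matrix (median log2 change 2.07), 5 of 6 for endothelium (1.46), 6 of 6 for B and plasma cells (1.73) and 3 of 3 for erythroid cells (1.99). Of 13 hepatocyte markers, 5 were lower and 1 was higher, with a median log2 change of -0.46. The part of these markers in the members' change was not tested.

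The summed level of the 72 tested subunits, each measured per length of its transcript, was 8201 and 8798 FPKM in transgenic LPS livers and 10269 and 10129 FPKM in wild-type LPS livers. It was 11989 and 11467 FPKM in untreated transgenic livers and 14425 and 11716 FPKM in untreated wild-type livers. Every LPS library was below every untreated library, and the untreated wild-type pair was the widest, with a mean of 13070.0 ± 1916 FPKM against 8499 ± 422 FPKM in transgenic LPS livers (SD, n = 2). The ratio of the group means, LPS over untreated, was 0.725 in transgenic mice and 0.78 in wild type mice. Complex I held 27.0% to 28.8% of this sum across the 8 libraries, complex II 5.54% to 6.01%, complex III 13.6% to 15.0%, complex IV 22.3% to 25.2% and complex V 27.6% to 29.4%. The sum thus differed between LPS and untreated livers while its division among the complexes stayed within these ranges.

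**Figure D1:**
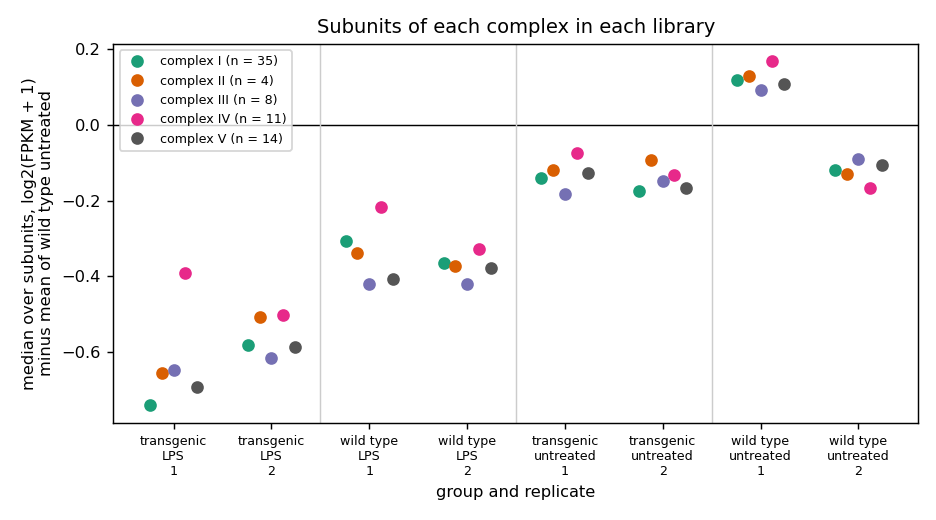
Level of each complex's tested subunits in the 8 libraries, as the median over subunits of the log2(FPKM + 1) difference from the mean of the untreated wild-type livers. Points are complexes, in columns of libraries ordered as transgenic LPS, wild-type LPS, untreated transgenic and untreated wild-type livers. In every complex the 4 LPS libraries lie below the 4 untreated libraries, and they come closest in complex IV, with wild-type LPS replicate 1 at -0.22 and untreated wild-type replicate 2 at -0.17.

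By complex, with the effect of LPS averaged over the genotypes, 22 of 35 complex I subunits fell (median log2 change -0.44), 3 of 4 in complex II (-0.42), 6 of 8 in complex III (-0.46), 5 of 11 in complex IV (-0.35) and 12 of 14 in complex V (-0.45). No subunit of any complex rose, and 15.8% of all features were lower. With libraries scaled to the same sum the lower subunits numbered 6 in complex I, 1 in complex II, 2 in complex III, 0 in complex IV and 1 in complex V. Of all features, 5.36% were lower under that scaling. After quantile normalization the lower subunits numbered 10 in complex I, 1 in complex II, 0 in complex III, 2 in complex IV and 3 in complex V. Of all features, 21.4% were lower after quantile normalization. The order of the complexes by count thus depended on the scaling. The differences between complexes in these counts were not tested, since the subunits of a complex are not replicates. All 72 subunits had a log2 change below 0 with FPKM as deposited, from -0.05 to -0.72. Of the 88 members, 84 lay below 0 as deposited, and 72 did with libraries scaled to the same sum and 72 after quantile normalization.

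Complex I takes electrons from NADH in its matrix arm, pumps protons in its membrane arm and carries a large number of supernumerary subunits around its core. Of the core subunits reported, 3 of 6 fell (median -0.52), and of the supernumerary subunits 19 of 29 fell (median -0.42). Over all features tested, 15.8% fell. Ndufs1 (chr1:63143596-63176833, minus strand in GRCm38, as are all gene positions here) encodes the largest iron-sulfur subunit of the matrix arm. It was at 37.8 and 43.4 FPKM in transgenic LPS livers, 43.5 and 42.2 FPKM in wild-type LPS livers, 56.5 and 63.3 FPKM in untreated transgenic livers, and 66.2 and 81.4 FPKM in untreated wild-type livers. All 4 LPS libraries were below all 4 untreated libraries, and its log2 change was -0.66 (SE 0.12, adjusted p = 0.00365). Ndufb9 (chr15:58933756-58939488, plus strand), a supernumerary subunit of the membrane arm, had the highest mean level in complex I. Its values were 179.9 and 201 FPKM in transgenic LPS livers, 209 and 206 FPKM in wild-type LPS livers, 313 and 299 FPKM in untreated transgenic livers, and 382 and 292 FPKM in untreated wild-type livers. The groups did not overlap between treatments, although the untreated wild-type replicates differed more from each other than those of any other group, and its log2 change was -0.68 (SE 0.13, adjusted p = 0.00492). Ndufb3 (chr1:58586384-58595964, plus strand), also of the membrane arm, showed the largest fall in the complex, with 46.7 and 59.0 FPKM in transgenic LPS livers, 64.7 and 59.6 FPKM in wild-type LPS livers, 85.2 and 94.1 FPKM in untreated transgenic livers, and 98.3 and 99.4 FPKM in untreated wild-type livers. Its 4 LPS values lay below its 4 untreated values, and the log2 change was -0.71 (SE 0.12, adjusted p = 0.00255).

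Ndufb4 (chr16:37647170-37654453, minus strand), a further supernumerary subunit, was the lowest-listed subunit of complex I, and its level was far below that of its partners. It was listed at 1.91 and 2.34 FPKM in transgenic LPS livers, 4.09 and 4.11 FPKM in wild-type LPS livers, 3.48 and 2.92 FPKM in untreated transgenic livers, and 2.88 and 3.33 FPKM in untreated wild-type livers. The transgenic LPS livers lay below all other groups and the wild-type LPS livers above them. Its averaged log2 change of -0.05 (adjusted p = 0.7) did not pass the test and turned to 0.14 when the libraries were scaled to the same sum.

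Complex II is the one complex of the chain that is also an enzyme of the citric acid cycle and that pumps no protons. Sdha (chr13:74322254-74350280, minus strand), its flavoprotein with the succinate site, was at 97.3 and 117 FPKM in transgenic LPS livers, 119 and 122 FPKM in wild-type LPS livers, 177 and 182 FPKM in untreated transgenic livers, and 196 and 196 FPKM in untreated wild-type livers. The LPS and untreated groups did not overlap, and the highest LPS value was below the lowest untreated value by more than the spread within any group. The log2 change was -0.72 (SE 0.11, adjusted p = 0.00175). Sdhc (chr1:171127165-171150603, minus strand) and Sdhd (chr9:50596357-50603812, minus strand) encode the membrane anchors. Sdhc was at 99.96 and 111 FPKM in transgenic LPS livers, 134 and 132 FPKM in wild-type LPS livers, 149.9 and 150.1 FPKM in untreated transgenic livers, and 177 and 140.3 FPKM in untreated wild-type livers, and it changed by -0.38 (SE 0.12, adjusted p = 0.0398). Sdhd, the highest-listed gene of the complex, was at 152 and 169 FPKM in transgenic LPS livers, 178 and 178 FPKM in wild-type LPS livers, 227 and 229 FPKM in untreated transgenic livers, and 261 and 223 FPKM in untreated wild-type livers, and it changed by -0.47 (SE 0.11, adjusted p = 0.0144). Both anchors were lower in all 4 LPS libraries. The call of Sdhd was lost without either wild-type LPS or either untreated transgenic replicate (adjusted p 0.0589 to 0.0699), and that of Sdhc also without replicate 1 of the transgenic LPS or the untreated wild-type livers (0.0572 to 0.136). Sdhb (chr4:140961203-140979193, plus strand), the iron-sulfur subunit, overlapped between treatments, with 113 and 113 FPKM in transgenic LPS livers, 139.7 and 129 FPKM in wild-type LPS livers, 134 and 128 FPKM in untreated transgenic livers, and 178 and 146 FPKM in untreated wild-type livers. Its log2 change of -0.23 (SE 0.11, adjusted p = 0.148) did not pass, and it turned to 0.03 when libraries were scaled to the same sum and to 0.10 after quantile normalization. Whether Sdhb differed from Sdha in its response was not tested.

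In complex III, Uqcrb (chr13:66900617-66905378, minus strand), the ubiquinone-binding small subunit, had the largest fall, at 49.1 and 65.1 FPKM in transgenic LPS livers, 76.3 and 60.7 FPKM in wild-type LPS livers, 89.8 and 110.1 FPKM in untreated transgenic livers, and 93.5 and 121 FPKM in untreated wild-type livers. The LPS and untreated libraries did not overlap, and the log2 change was -0.72 (SE 0.16, adjusted p = 0.00979). Uqcrc2 (chr7:120635176-120659524, plus strand), a large core protein facing the matrix, was at 90.6 and 105 FPKM in transgenic LPS livers, 98.3 and 104 FPKM in wild-type LPS livers, 132 and 158 FPKM in untreated transgenic livers, and 158 and 186 FPKM in untreated wild-type livers. All 4 LPS values were below all 4 untreated values, and its log2 change was -0.66 (SE 0.12, adjusted p = 0.00476). Uqcr11 (chr10:80402997-80406830, minus strand), a small accessory subunit, changed by -0.48 (SE 0.14, adjusted p = 0.0296), but its wild-type LPS values of 117 and 111 FPKM overlapped the untreated transgenic values of 113 and 111 FPKM. Its call was lost without either wild-type LPS replicate, either untreated transgenic replicate or untreated wild-type replicate 1 (adjusted p 0.0566 to 0.11). Uqcrq (chr11:53427922-53430831, minus strand), another small subunit and the highest-listed gene of the complex, was at 327 and 364 FPKM in transgenic LPS livers, 515 and 490.0 FPKM in wild-type LPS livers, 532 and 415 FPKM in untreated transgenic livers, and 692 and 288 FPKM in untreated wild-type livers. The untreated wild-type replicates were the highest and the lowest of the 8 libraries. Its log2 change of -0.14 (SE 0.26, adjusted p = 0.711) did not pass, it was -0.45 without untreated wild-type replicate 2 (adjusted p = 0.0465) and 0.18 without untreated wild-type replicate 1, and it was 0.12 with libraries scaled to the same sum and 0.15 after quantile normalization.

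In complex IV, Ndufa4 (chr6:11900292-11907497, minus strand), named for complex I but a subunit of cytochrome c oxidase, had the highest mean level. It was at 369 and 412 FPKM in transgenic LPS livers, 466 and 462 FPKM in wild-type LPS livers, 589.9 and 557 FPKM in untreated transgenic livers, and 681 and 637 FPKM in untreated wild-type livers. All LPS values were below all untreated values, and the log2 change was -0.53 (SE 0.11, adjusted p = 0.00941). Cox7b (chrX:106015700-106022450, plus strand), a small subunit needed for assembly of the oxidase, was at 70.7 and 98.3 FPKM in transgenic LPS livers, 88.0 and 87.3 FPKM in wild-type LPS livers, 113 and 148 FPKM in untreated transgenic livers, and 117 and 166 FPKM in untreated wild-type livers. The transgenic LPS replicate 2, at 98.3 FPKM, was the highest of the 4 LPS values and still below the lowest untreated value, and the log2 change was -0.65 (SE 0.17, adjusted p = 0.0218). The call of Ndufa4 was lost without either wild-type LPS replicate or untreated transgenic replicate 1 (adjusted p 0.0515 to 0.0546). That of Cox7b was lost without either wild-type LPS replicate, untreated transgenic replicate 2 or transgenic LPS replicate 1 (0.0552 to 0.0861). Complex IV also held subunits with small changes that did not pass. Cox8a and Cox5a, named after their values were seen, had log2 changes of -0.09 (adjusted p = 0.722) and -0.17 (adjusted p = 0.323), and Cox4i1, the regulatory subunit, had -0.30 (adjusted p = 0.186).

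The complex IV isoforms were low in these livers. Of 8, 2 were listed at 0 throughout and 5 reached the level for testing, of which 1 rose and 1 fell. Over all features tested, 20.6% rose and 15.8% fell. Ndufa4l2 (chr10:127514967-127517154, plus strand), the hypoxia-inducible relative of Ndufa4, was the single member that rose. It was listed at 1.99 and 2.68 FPKM in transgenic LPS livers, 3.18 and 3.33 FPKM in wild-type LPS livers, 1.16 and 1.27 FPKM in untreated transgenic livers, and 1.20 and 0.791 FPKM in untreated wild-type livers. All 4 LPS libraries were above all 4 untreated libraries, and the log2 change was 0.84 (SE 0.11, adjusted p = 0.000968), on a scale that understates the change of a gene this low. It was not tested under the filter of 5 FPKM. Cox7a1 (chr7:30184144-30186078, plus strand), the heart and muscle isoform, was at 2.39 and 0.800 FPKM in transgenic LPS livers, 1.12 and 2.82 FPKM in wild-type LPS livers, 3.52 and 3.15 FPKM in untreated transgenic livers, and 5.01 and 4.10 FPKM in untreated wild-type livers, without overlap between treatments, and it fell, with a log2 change of -0.89 (SE 0.25, adjusted p = 0.0259). Its call was lost without transgenic LPS replicate 2, wild-type LPS replicate 1, either untreated transgenic replicate or untreated wild-type replicate 1 (adjusted p 0.0535 to 0.0816). Cox8b (chr7:140898945-140900446, minus strand) and Cox6a2 (chr7:128205435-128206387, minus strand) are also isoforms of striated muscle, and neither passed the test. Cox8b had 0.901 and 0 FPKM in transgenic LPS livers, 0 and 1.06 FPKM in wild-type LPS livers, 1.65 and 0.300 FPKM in untreated transgenic livers, and 3.93 and 1.59 FPKM in untreated wild-type livers, and Cox6a2 had 0.269 and 0 FPKM in transgenic LPS livers, 0.402 and 0.593 FPKM in wild-type LPS livers, 1.05 and 0.134 FPKM in untreated transgenic livers, and 0 and 1.81 FPKM in untreated wild-type livers. Each was listed at 0 in 2 of the 8 libraries. The summed striated muscle markers also varied within groups, at 18.2 and 3.38 FPKM in transgenic LPS livers, 7.38 and 37.7 FPKM in wild-type LPS livers, 54.1 and 9.17 FPKM in untreated transgenic livers, and 1.15 and 79.9 FPKM in untreated wild-type livers. The part of muscle RNA in these isoforms was not tested. Cox6b2 (chr7:4751792-4753094, minus strand), an isoform known from testis, ranged from 3.23 to 6.11 FPKM over the 8 libraries with a log2 change of 0.10 (adjusted p = 0.645), which was -0.03 after quantile normalization.

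**Figure D2:**
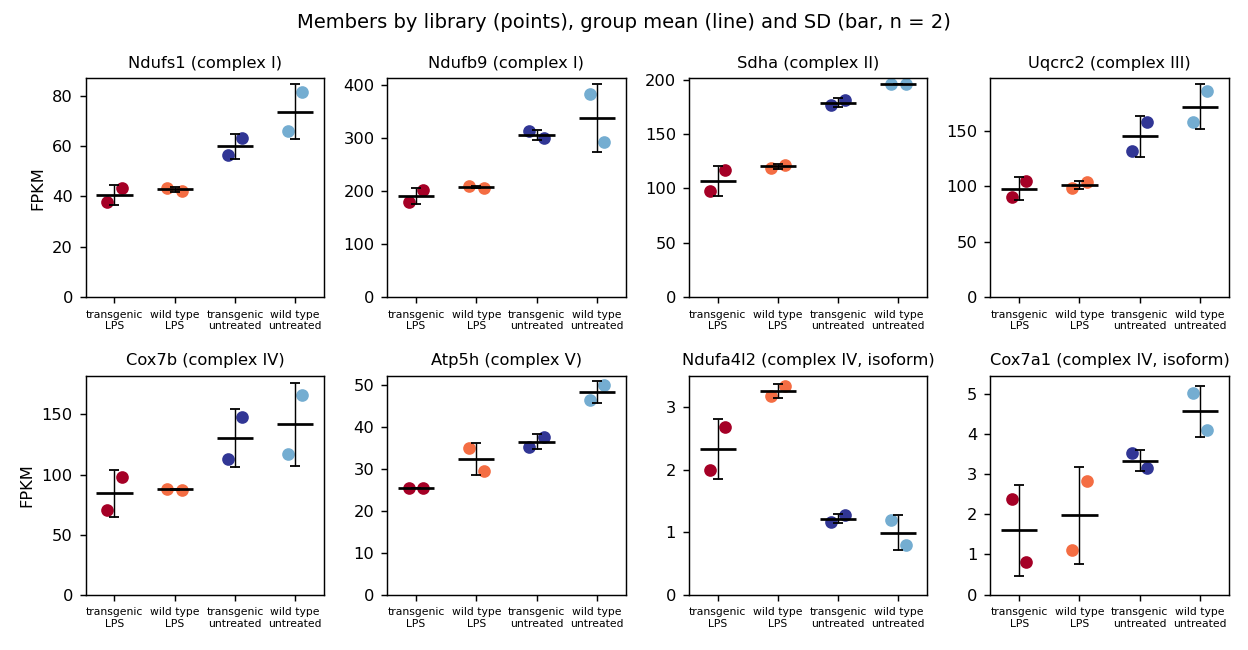
FPKM of 8 members in each of the 8 libraries, with the groups in the order transgenic LPS, wild-type LPS, untreated transgenic and untreated wild-type. Points are libraries, lines are group means and bars are SD (n = 2). Ndufs1, Ndufb9, Sdha, Uqcrc2, Cox7b, Atp5h and Cox7a1 are lower in all LPS libraries, and Ndufa4l2, at 1.99 to 3.33 FPKM with LPS and 0.791 to 1.27 FPKM without, is higher.

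Complex V consists of the catalytic F1 head, a central and a peripheral stalk, and a membrane part with the rotating c ring. With LPS averaged over the genotypes, 15.8% of all features tested fell. Of the F1 subunits 3 of 5 fell (median -0.41), and of those outside F1 9 of 9 fell (median -0.48). With libraries scaled to the same sum these counts were 0 in F1 and 1 outside it, and after quantile normalization 0 and 3. Of all features, 5.36% were lower with the same sum and 21.4% after quantile normalization. Atp5b (chr10:128083273-128090391, plus strand), the catalytic beta subunit, had the highest mean level of all members. It was at 516 and 505 FPKM in transgenic LPS livers, 551 and 562 FPKM in wild-type LPS livers, 667 and 655 FPKM in untreated transgenic livers, and 787 and 727 FPKM in untreated wild-type livers, without overlap between treatments, and its log2 change was -0.41 (SE 0.11, adjusted p = 0.0256). Atp5g3 (chr2:73908447-73911326, minus strand), which encodes the c ring subunit, was at 427 and 464 FPKM in transgenic LPS livers, 539 and 506 FPKM in wild-type LPS livers, 655 and 677 FPKM in untreated transgenic livers, and 749 and 645 FPKM in untreated wild-type livers. Its LPS values were all below its untreated values, and the log2 change was -0.50 (SE 0.12, adjusted p = 0.0152). Atp5h (chr11:115415689-115419962, minus strand), the peripheral stalk subunit d, was at 25.5 and 25.4 FPKM in transgenic LPS livers, 35.1 and 29.6 FPKM in wild-type LPS livers, 35.3 and 37.8 FPKM in untreated transgenic livers, and 46.5 and 50.2 FPKM in untreated wild-type livers. The wild-type LPS replicate 1, at 35.1 FPKM, came close to the lowest untreated transgenic value of 35.3 FPKM, and the log2 change was -0.53 (SE 0.10, adjusted p = 0.00546). Atp5k (chr5:108433244-108434448, minus strand), the membrane subunit e that takes part in dimer formation, had the largest fall in the complex, at -0.63 (SE 0.14, adjusted p = 0.0109), with 109 and 128 FPKM in transgenic LPS livers, 154 and 174 FPKM in wild-type LPS livers, 217 and 206 FPKM in untreated transgenic livers, and 258 and 187 FPKM in untreated wild-type livers. The treatments did not overlap, and wild-type LPS replicate 2 came closest to untreated wild-type replicate 2. The calls of Atp5b (adjusted p 0.0982 to 0.115) and Atp5g3 (0.0594 to 0.0823) were lost without either wild-type LPS or either untreated transgenic replicate, and that of Atp5k without wild-type LPS replicate 1 (0.058).

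Atp5l (chr9:44912557-44920742, minus strand), the membrane subunit g, was listed at only 0.829 and 0.548 FPKM in transgenic LPS livers, 1.17 and 0.747 FPKM in wild-type LPS livers, 2.37 and 2.30 FPKM in untreated transgenic livers, and 0.661 and 0.955 FPKM in untreated wild-type livers. The untreated transgenic livers stood above the other 3 groups. Its averaged log2 change was -0.44 (SE 0.12, adjusted p = 0.0225), with -0.99 (SE 0.17, adjusted p = 0.00503) in transgenic mice and 0.11 (SE 0.17, adjusted p = 0.67) in wild type mice. The averaged call was lost without replicate 2 of the transgenic LPS, the wild-type LPS or the untreated wild-type livers, or without either untreated transgenic replicate (adjusted p 0.0531 to 0.0872). The annotation holds 2 pseudogenes named after Atp5l, and the sources used here do not say how reads of such copies were assigned. Atp5g2, a further c ring gene, was listed at 0 in 6 of the 8 libraries.

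Of the assembly factors and other names, 3 of 11 fell, with a median log2 change of -0.31, and the difference from the subunits was not tested. The share of all features that fell was 15.8%. Ndufaf1 (chr2:119655446-119662827, minus strand), an assembly factor of complex I, was at 7.67 and 11.5 FPKM in transgenic LPS livers, 12.8 and 12.2 FPKM in wild-type LPS livers, 17.1 and 17.2 FPKM in untreated transgenic livers, and 16.2 and 22.7 FPKM in untreated wild-type livers, and fell, with a log2 change of -0.69 (SE 0.15, adjusted p = 0.0106). Ndufaf2 (chr13:108002715-108158623, minus strand), which acts late in the assembly of complex I, was at 10.001 and 10.9 FPKM in transgenic LPS livers, 9.51 and 11.2 FPKM in wild-type LPS livers, 17.7 and 15.9 FPKM in untreated transgenic livers, and 14.7 and 15.8 FPKM in untreated wild-type livers, and fell, with a log2 change of -0.58 (SE 0.10, adjusted p = 0.00367). Neither overlapped between treatments. In the other direction, Cox7a2l (chr17:83501918-83517330, minus strand), a factor of supercomplexes of complexes III and IV, was at 78.4 and 88.3 FPKM in transgenic LPS livers, 93.5 and 93.1 FPKM in wild-type LPS livers, 73.3 and 76.2 FPKM in untreated transgenic livers, and 81.1 and 85.0 FPKM in untreated wild-type livers. Its log2 change of 0.16 (SE 0.10, adjusted p = 0.25) did not pass, and it was 0.42 (adjusted p = 0.0116) with libraries scaled to the same sum and 0.43 (adjusted p = 0.0119) after quantile normalization. Atp5sl, a name matched by its first letters, changed by 0.02 (adjusted p = 0.919), and its direction turned when single libraries were left out.

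Promoters were read for the members because most of them moved together. RefSeq held a window of 300 bases, from 250 before to 50 after the start, for 75 of the 93 members by symbol (GRCm38.p6). Motifs were searched on both strands: GCGCANGCG for NRF1, CCGGAAGT for ETS factors, TCAAGGTCA for estrogen-related receptors and AAGATGGCG for YY1, factors known as regulators of respiratory chain genes. The NRF1 letters are close to a palindrome, so that matches on the 2 strands can overlap. They were in 22 of 75 members' windows (29.3%), 7.03% of the windows of all 27025 genes and 15.3% of those of the 8302 tested features with one. The ETS letters were in 6.67% of members, 4.31% of all genes and 9.02% of tested features, and the YY1 letters in 9.33%, 1.64% and 3.71% of them. The letters for estrogen-related receptors were in 2 members (2.67%), against 0.466% of all genes and 0.301% of tested features. Among the members that fell with LPS 16 of 45 windows (35.6%) held the NRF1 letters, and among the tested members that did not fall 4 of 27 (14.8%), with no test. By complex the NRF1 letters were in 8 of 32 windows for complex I, 2 of 3 for complex II, 2 of 5 for complex III, 1 of 9 for complex IV and 7 of 13 for complex V. A match is a description of these letters and not a binding site.

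The following windows are shown because they hold 2 or more motif matches in genes that fell with LPS and stand for complexes I, II and V. Capitals mark the motif letters, on either strand, and each sequence runs 5′ to 3′ on the gene's own strand, which is the minus strand for all 5. Ndufs6, an accessory subunit of complex I with a zinc site, is at chr13:73328433-73328732 and holds the NRF1 and YY1 letters. Sdha is at chr13:74350191-74350490 with 3 matches to NRF1, and Sdhd is at chr9:50603800-50604099 with NRF1 and the estrogen-related receptor letters. Atp5g3 is at chr2:73911277-73911576 with the same pair, and Atp5h is at chr11:115419870-115420169 with NRF1 and ETS.
Ndufs6: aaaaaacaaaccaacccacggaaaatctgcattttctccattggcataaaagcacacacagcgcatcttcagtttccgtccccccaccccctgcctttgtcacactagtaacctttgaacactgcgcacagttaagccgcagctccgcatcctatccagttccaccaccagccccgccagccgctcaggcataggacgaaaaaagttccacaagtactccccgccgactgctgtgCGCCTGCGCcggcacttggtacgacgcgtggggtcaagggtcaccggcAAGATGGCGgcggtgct
Sdha: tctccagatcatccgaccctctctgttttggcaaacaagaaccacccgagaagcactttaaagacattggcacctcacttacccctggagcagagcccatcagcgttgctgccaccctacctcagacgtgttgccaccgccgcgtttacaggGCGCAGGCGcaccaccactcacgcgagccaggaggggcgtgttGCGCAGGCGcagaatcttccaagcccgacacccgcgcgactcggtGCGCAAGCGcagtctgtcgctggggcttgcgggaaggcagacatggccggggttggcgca
Sdhd: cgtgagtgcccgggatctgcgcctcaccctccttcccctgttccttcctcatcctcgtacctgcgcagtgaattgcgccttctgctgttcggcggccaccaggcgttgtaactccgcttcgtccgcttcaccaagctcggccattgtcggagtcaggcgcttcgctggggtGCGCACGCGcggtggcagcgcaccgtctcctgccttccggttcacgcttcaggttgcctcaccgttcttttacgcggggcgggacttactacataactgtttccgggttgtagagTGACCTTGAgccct
Atp5g3: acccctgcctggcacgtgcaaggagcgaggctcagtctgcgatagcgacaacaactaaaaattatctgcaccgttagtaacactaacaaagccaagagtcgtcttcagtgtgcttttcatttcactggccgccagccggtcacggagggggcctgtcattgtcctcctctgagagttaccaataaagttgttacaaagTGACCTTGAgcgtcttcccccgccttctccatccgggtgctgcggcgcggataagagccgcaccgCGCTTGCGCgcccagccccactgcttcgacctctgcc
Atp5h: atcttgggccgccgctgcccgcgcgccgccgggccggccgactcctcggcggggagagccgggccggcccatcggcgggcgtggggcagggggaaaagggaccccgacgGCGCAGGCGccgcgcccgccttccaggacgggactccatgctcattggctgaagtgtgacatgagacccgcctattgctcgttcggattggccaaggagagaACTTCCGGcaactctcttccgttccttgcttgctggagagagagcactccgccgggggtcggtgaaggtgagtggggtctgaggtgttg

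Within each genotype the same comparison rested on 2 livers against 2. In transgenic mice 24 of 88 members fell and 1 rose with LPS (median log2 change -0.47), where 10.5% of all features were lower and 16% higher. In wild type mice 14 fell and 1 rose (median -0.36), where 5.41% of all features were lower and 16.2% higher. Both transgenic LPS libraries were below both untreated transgenic libraries for 76 members (86.4%, against 36.2% of all features), and both wild-type LPS libraries were below both untreated wild-type libraries for 58 (65.9%, against 34% of all features). The members that fell in both genotypes, named after their values were seen, were Ndufs1, Ndufv1, Ndufa5, Ndufa9, Ndufa10, Ndufb3, Ndufb9, Sdha, Uqcrc2, Atp5h and the assembly factor Ndufaf2. Ndufa4l2 rose in both, by 0.58 in transgenic mice (adjusted p = 0.0343) and by 1.10 in wild type mice (adjusted p = 0.00232). The rise in transgenic mice was lost (0 members higher) without transgenic LPS replicate 2, either wild-type LPS replicate or either untreated transgenic replicate. The counts of lower members also moved with single livers. In transgenic mice 1 member was lower without either untreated transgenic replicate, 2 without transgenic LPS replicate 1, 6 without either wild-type LPS replicate and 40 without either untreated wild-type replicate. In wild type mice it was 0 without either wild-type LPS replicate, 4 without either untreated transgenic replicate, 7 without untreated wild-type replicate 2 and 22 without either transgenic LPS replicate. The averaged count of 52 fell without either wild-type LPS replicate or either untreated transgenic replicate, and so did the share of all features that were lower. The members' averaged median log2 change was -0.4247 and -0.3987 without wild-type LPS replicate 1 and 2. It was -0.402 and -0.4308 without untreated transgenic replicate 1 and 2. This median lay between -0.4652 and -0.3616 without any of the other libraries.

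**Figure D3:**
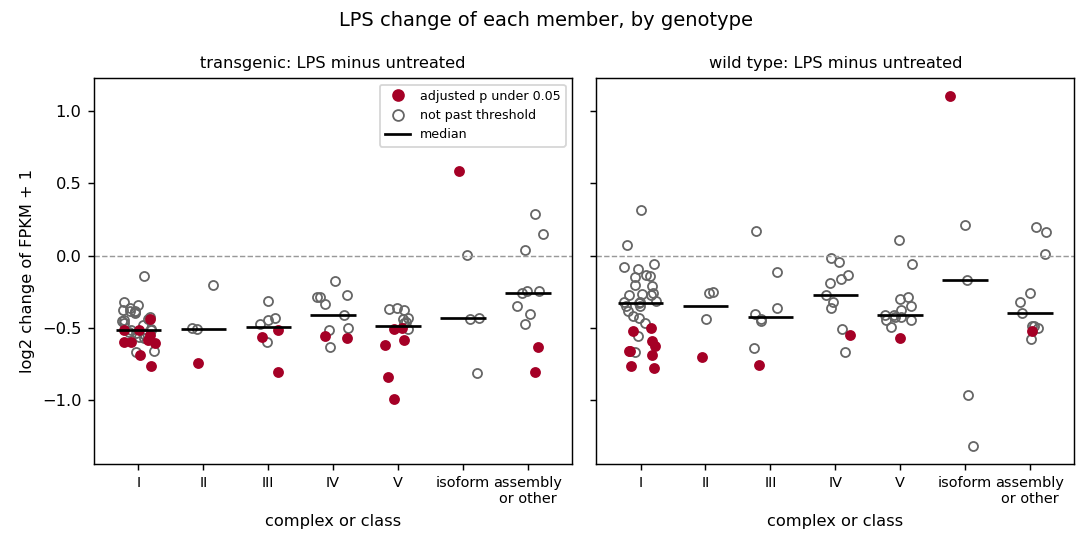
Log2 change with LPS of each tested member on the log2(FPKM + 1) scale, in transgenic mice (left) and wild type mice (right), by complex, isoforms and assembly factors or other names. Points are members, filled where the adjusted p was under 0.05, and lines are medians. With FPKM as deposited, all 72 subunits lie below 0 in transgenic mice and 68 of 72 in wild type mice, and the filled points number 25 in transgenic and 15 in wild type mice.

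Subunits of the chain are abundant transcripts, and abundant transcripts as a class were lower with LPS. Of the 1139 features with a mean of at least 50 FPKM, 38.7% were lower with LPS averaged over the genotypes (median log2 change -0.35), against 37 of the 59 members of that abundance (62.7%, median -0.42). In transgenic mice it was 27.6% of abundant features and 16 of 59 members (27.1%), and in wild type mice 15.4% of abundant features and 10 of 59 members (16.9%). The members' share within either genotype was thus near that of abundant features at large. In the averaged comparison the members' share was above it, and this difference was not tested. The scale of the libraries also bore on the count. With libraries scaled to the same FPKM sum, 12 members were lower (13.6%, against 5.36% of all features), the members' median was -0.16 and the median of all features moved to 0.16. After quantile normalization 21 members were lower (23.9%), near the 21.4% of all features, and the members' median was -0.17 beside -0.11 for all features. With median ratio scaling 49 were lower, and after adjustment for the GC content of the transcripts 66 of 87 (75.9%, against 22.3% of the features with a transcript). As a description, the log2 difference between replicates 1 and 2 was set against transcript GC content across the 87 members with a transcript, which share their libraries. The r was 0.229 in transgenic LPS livers, -0.148 in wild-type LPS livers, 0.565 in untreated transgenic livers and 0.615 in untreated wild-type livers. Over all 10198 features with a transcript it was 0.203, -0.016, 0.383 and 0.562 in that order. The averaged LPS change itself went with GC content at r = 0.306 in the members and 0.168 over those features. Lower under every one of 18 alternatives were 9 members, named after their values were seen: Ndufs1, Ndufv1, Ndufa5, Ndufa9, Ndufb3, Ndufb9, Sdha, Ndufaf1 and Ndufaf2.

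**Figure D4:**
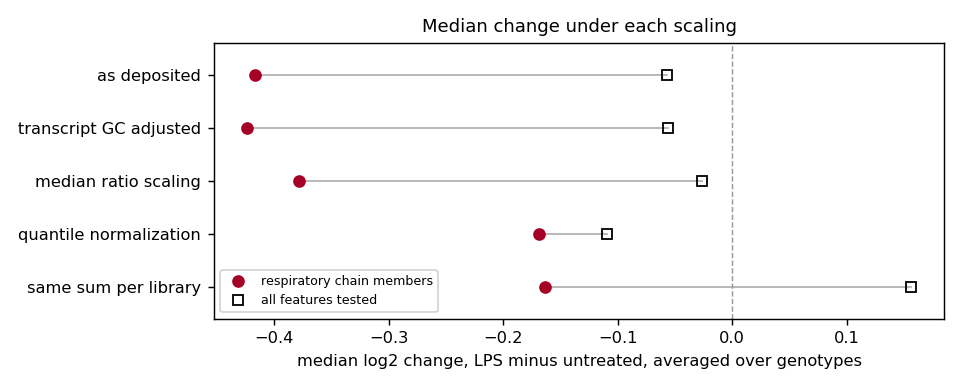
Median log2 change with LPS, averaged over the genotypes, of the tested members (circles) and of all features tested (squares), with FPKM as deposited, adjusted for transcript GC content and under 3 scalings. The members' median, -0.42 as deposited, lies below that of all features in each row, with the smallest distance after quantile normalization (-0.17 beside -0.11).

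No member passed the test for the transgene or for a difference in the LPS effect between genotypes. With LPS, 0 of 88 members differed between transgenic and wild type mice (limma, adjusted p under 0.05), where 0% of all features were called in either direction, and 11 had an unadjusted p under 0.05, all lower in transgenic mice, against 12.2% of all features. In untreated mice 0 differed, where 0.0349% of all features were lower and 0.0262% higher, and 3 had an unadjusted p under 0.05, against 5.5% of all features. Averaged over treatments 0 differed, where 0.0698% were called in each direction, and 17 had an unadjusted p under 0.05, 16 of them lower, against 6.49% of all features. The members' median log2 difference, transgenic minus wild type, was -0.25 with LPS, -0.15 in untreated mice and -0.19 averaged over treatments, beside -0.04, 0.00 and -0.01 over all features. Both transgenic LPS libraries were below both wild-type LPS libraries for 64 members (72.7%, against 30% of all features), and both untreated transgenic libraries were below both untreated wild-type libraries for 32 (36.4%, against 14.2%). With LPS this held for 27 of 35 subunits of complex I, 4 of 4 of complex II, 6 of 8 of complex III, 8 of 11 of complex IV and 13 of 14 of complex V. Complex IV held the single subunit with both transgenic libraries above, Cox7c. Library FPKM sums were also lower, at 406668 and 457779 in transgenic against 469644 and 461001 in wild-type LPS livers. Untreated, they were 525200 and 500765 against 580051 and 543010. The reported members held 2.059% and 1.963% of the sum in transgenic and 2.229% and 2.241% in wild-type LPS livers. Untreated, the shares were 2.321% and 2.329% in transgenic livers, between the wild-type 2.524% and 2.198%. The part of library scale or abundance in the genotype differences was not tested. Without transgenic LPS replicate 2, 1 member was lower in transgenic LPS mice.

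For the interaction (the transgenic log2 effect of LPS minus the wild type one), 0 of 88 members passed, where 0.00872% of all features were lower and 0% higher, and 2 had an unadjusted p under 0.05, against 10.4% of all features. The members' median was -0.09, beside -0.06 over all features. The smallest p-values belonged to Atp5l at -1.10 (SE 0.23, adjusted p = 0.32), Ndufb4 at -0.74 (SE 0.20, adjusted p = 0.418) and Ndufa4l2 at -0.52 (SE 0.23, adjusted p = 0.488). All 3 were listed below 5 FPKM in every library.

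Other genes of mitochondrial energy conversion were read from lists. Over all features tested, 15.8% fell and 20.6% rose with LPS averaged over the genotypes. Of 19 tested genes of pyruvate oxidation and the citric acid cycle, which feeds the chain, 11 fell and 0 rose with LPS averaged over the genotypes (median -0.49). Of 31 assembly factors outside the members, 16 fell and 0 rose (median -0.42), and of 70 genes of the mitochondrial ribosome, which makes the subunits encoded in mitochondrial DNA, 27 fell and 0 rose (median -0.32). The mobile carriers and other partners of the chain gave 4 lower and 1 higher of 9. Etfa (-0.83, adjusted p = 0.000972) and Etfdh (-0.78, adjusted p = 0.00311), which pass electrons from fatty acid oxidation to ubiquinone, fell, as did cytochrome c, Cycs (-0.62, adjusted p = 0.013). Atpif1, the inhibitor of ATP hydrolysis by complex V, rose by 1.03 (SE 0.18, adjusted p = 0.00332). It was at 32.0 and 30.4 FPKM in transgenic LPS livers, 40.2 and 31.9 FPKM in wild-type LPS livers, 21.2 and 14.8 FPKM in untreated transgenic livers, and 17.7 and 11.2 FPKM in untreated wild-type livers, with no overlap between treatments.

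Mitochondrial import gave 5 lower and 1 higher of 22 (median -0.23), where 15.8% of all features tested were lower and 20.6% higher. Carriers and pores of the inner and outer membrane gave 1 lower and 2 higher of 7. The pair that rose were Ucp2, an uncoupling protein relative strong in macrophages (1.91, adjusted p = 0.000146), and Slc25a4, an ADP/ATP carrier known mainly from muscle (1.71, adjusted p = 0.000274). Regulators of mitochondrial biogenesis gave 2 lower and 0 higher of 15, with a median of -0.06, beside -0.06 over all features. Tfam, which packages mitochondrial DNA and is a factor in its transcription, fell (-0.52, adjusted p = 0.0145). The nuclear receptor Ppara fell as well (-0.72, adjusted p = 0.00992). Nrf1 had a log2 change of 0.02 (adjusted p = 0.929) and Yy1 of -0.0033 (adjusted p = 0.985). Ppargc1a, a coactivator of respiratory genes, was at 22.9 and 4.73 FPKM in transgenic LPS livers, 3.21 and 3.30 FPKM in wild-type LPS livers, 1.81 and 1.78 FPKM in untreated transgenic livers, and 4.67 and 3.85 FPKM in untreated wild-type livers. Its averaged change of 0.88 did not pass (adjusted p = 0.111), and transgenic LPS replicate 1 stood far above the other 7 libraries. Within transgenic mice 1 of the 15 regulators was higher with LPS and 1 lower, where 16% of all features were higher and 10.5% lower. The largest log2 change among them there, 2.07, was that of Ppargc1a. For the interaction 0 of the 15 passed. Genes of the cytosolic ribosome gave 2 lower and 8 higher of 71 (median 0.18). Of the 13 protein genes of mitochondrial DNA, looked up by their mt- names, 0 had a value above 0, so they could not be tested.

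**Figure D5:**
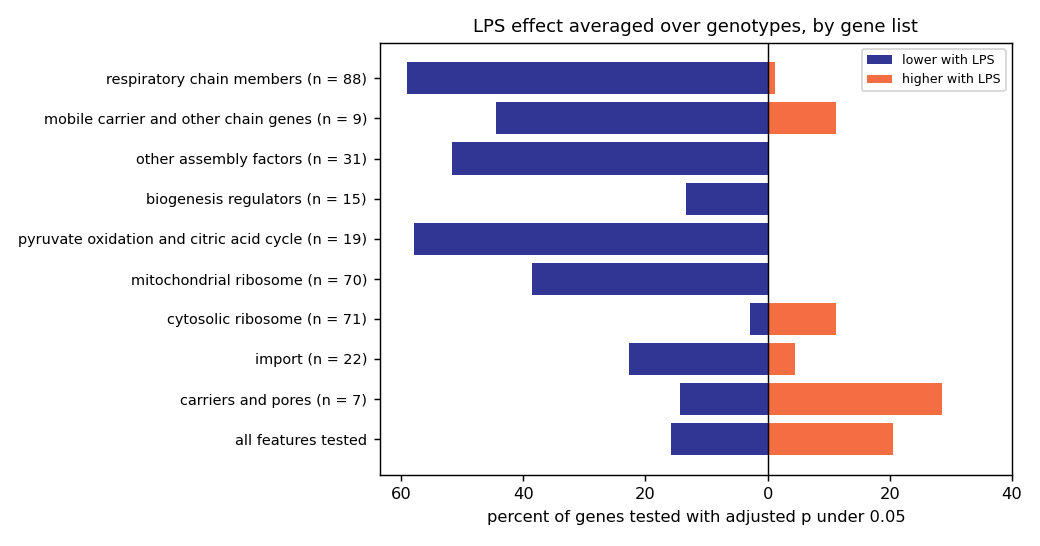
Share of the tested genes of each list that were lower (left of 0) or higher (right of 0) with LPS, averaged over the genotypes, in percent of genes with an adjusted p under 0.05. The members (59.1% lower) lie beside genes of pyruvate oxidation and the citric acid cycle (11 of 19 lower), and all features tested are 15.8% lower and 20.6% higher.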

How the data were processed

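Whole livers of 8 male mice, 2 in each of 4 groups, were measured by stranded mRNA sequencing, per the labels. The authors deposited 1 table of FPKM per gene, normalized for transcript length and for the fragments of each library. Per the submitters' processing notes, TopHat2 2.1.0, Bowtie2 2.2.6, Cufflinks and Cuffdiff 2.2.1 were used with mm10, in roles that the sources used here do not state. FPKM are not counts and depth is unknown, so no count test and no counting interval was used.

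The members and gene lists were chosen with earlier results of these data known. Of the members, 1 is not reported here and enters no count of tested members. For each name the row with the highest sum was used, rows with identical values were entered once, and a feature was kept when 2 or more of the 8 libraries reached 1 FPKM (11463 features). A linear model over the 4 groups was fitted to log2(FPKM + 1) with limma 3.58.1 in R 4.3.3, with moderated variances that follow the mean level (4 residual degrees of freedom). P-values were adjusted over all features by Benjamini-Hochberg, with a threshold of 0.05. They rest on the spread between the 2 livers of a group, pooled over the 4 groups and moderated with that of other features. Log2 changes understate those of low genes. Scripts were tested on simulated data. Gene positions come from a GENCODE annotation of GRCm38.

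Named with values were, in each complex, the member with the highest mean and the 3 largest falls and rises with LPS, every complex II subunit, the tested isoforms, the 2 largest changes in each direction among other names, and the 3 smallest p-values of the interaction. Alternatives were another pseudocount (0.1), no filter or 5 FPKM, 3 scalings, a replicate block, robust moderation, leaving out each library, fitting only the groups compared and summing the rows of a name. The adjustment for transcript GC content and the comparison with features of at least 50 FPKM were chosen after seeing the data. Where a library was left out, the lone library of its group was assumed to vary like the other groups.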

Additional observations from a re-analysis of the deposited data

Results flagged for a closer look

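The log2 effect of LPS on Ndufb4, a supernumerary subunit of complex I, was -0.43 in transgenic mice (adjusted p = 0.0637) and 0.32 in wild type mice (adjusted p = 0.156), a difference of -0.74 (SE 0.20, limma, adjusted p = 0.418). It is listed here because both LPS libraries lay below both untreated libraries in transgenic mice, at 1.91 and 2.34 FPKM against 3.48 and 2.92 FPKM, and above both untreated libraries in wild type mice, at 4.09 and 4.11 FPKM against 2.88 and 3.33 FPKM. The test of the difference did not pass over all features.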

How the results depend on the processing

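The members' median log2 change with LPS kept its sign under every alternative run. Scaled to the same sum it was -0.16 averaged over the genotypes, -0.25 in transgenic mice and -0.0938 in wild type mice, and after quantile normalization -0.17, -0.21 and -0.14 in that order. The median of all features after quantile normalization was -0.11, -0.07 and -0.12 in that order. The members' median thus lay apart from it by only -0.0202 in wild type mice, -0.1332 in transgenic mice and -0.0597 averaged. In the refits below, the lone library of a group was kept. Without single libraries it ran from -0.4652 to -0.3616 averaged, from -0.5257 to -0.3966 in transgenic mice and from -0.4698 to -0.2463 in wild type mice. Members lower numbered 12, 4 and 0 with the same sum (averaged, transgenic, wild type), 21, 8 and 4 after quantile normalization and 66, 46 and 32 after the GC adjustment. The averaged counts were 13.6%, 23.9% and 75.9% of the members tested. Of the features tested in the same 3 runs, 5.36%, 21.4% and 22.3% were lower. With only the groups compared the members lower numbered 10 in transgenic and 5 in wild type mice. Without single libraries they ran from 15 to 62 averaged, from 1 to 40 in transgenic mice and from 0 to 22 in wild type mice, and with the transgene under LPS from 0 to 1. The cause was not tested. Fewer libraries and fewer groups leave fewer degrees of freedom, and the counts without single libraries moved both up and down. The model shares 1 spread over the groups, and their replicates differed unequally. Over all features, the SD of the log2 difference between replicates was 0.484 in untreated wild-type and 0.467 in transgenic LPS livers. It was 0.314 in untreated transgenic and 0.233 in wild-type LPS livers. Members higher, 1 in each comparison, became 2 without a filter (averaged, wild type), 2 with the same sum (averaged, wild type), 2 after quantile normalization (averaged), 0 with the 5 FPKM filter in all 3 comparisons, since Ndufa4l2 is then not tested, and 0 with only the transgenic groups. Without single libraries they ran from 0 to 1 in transgenic and from 1 to 2 in wild type mice.

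Signs turned for Sdhb with the same sum (0.0272) and quantile normalization (0.10), Uqcrq with the same sum (0.12) and quantile normalization (0.15), Ndufb4 with the same sum (0.14) and Cox6b2 after quantile normalization (-0.0333). Leaving out single libraries turned Atp5sl (-0.1233 to 0.1698 over these refits), Cox6a2 (-0.6731 to 0.0717), Cox6b2 (-0.0822 to 0.2918) and Uqcrq (-0.4525 to 0.1794). None of these passed the test as first computed. For the named genes, alternatives other than leaving out a library gave 251 values with the same direction and call, 21 that lost the call, 4 that gained it and 6 that turned sign. In every refit without a library, 14 of the 52 averaged calls remained.

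The replicate numbers were not treated as pairs: correlations of same-numbered deviations ran from 0.043 to 0.459 over the group pairs, with 2 pairs below 0.1. The highest was between the untreated groups. Over the 88 members it was 0.473 between the untreated groups and 0.522 between the transgenic groups. Between the LPS groups it was -0.487. Whether same-numbered livers share a batch cannot be told from the labels. A fit with the replicate block gave 55 members lower averaged, 26 in transgenic and 16 in wild type mice, and 51 of the 52 calls remained. Averaged, that was 62.5% of members, against 18% of all features. Untreated wild-type replicates differed most, with an SD of 0.419 in the members' log2 difference between replicates. Depth is unknown, and 2 livers a group limit every call.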
